A study of Homo sapiens with 15 samples.

Results

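MHC class I antigen presentation genes are described here through 9 members chosen by gene symbol: HLA-B, HLA-C, HLA-E, B2M, TAP1, TAP2, TAPBP, PSMB8 and PSMB9. All 9 were found among the 33158 gene symbols of the deposited expression table. The study sequenced mRNA from 3 triple negative breast cancer cell lines to compare cancer stem cells with the other cells of a line. SUM149PT, from an inflammatory breast cancer, and HCC1937, a BRCA1-mutant ductal carcinoma line, were each sorted by the surface proteins CD44 and CD24. Cells of the CD44+/CD24-/low fraction are called CSC and the remaining cells non-CSC. SUM159PT, from an anaplastic carcinoma, was sequenced unsorted and stands in the study as a CSC sample. The 5 groups are SUM149PT CSC, SUM149PT non-CSC, HCC1937 CSC, HCC1937 non-CSC and SUM159PT, with 3 libraries each and 15 in all. The labels name no treatment for any group.

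MHC class I molecules show peptides from inside the cell to CD8+ T cells and to natural killer cells. Proteasomes cut proteins into peptides, the TAP transporter carries the peptides into the endoplasmic reticulum, and chaperones load them onto a heavy chain paired with beta-2 microglobulin. Interferons raise the expression of most of these genes, and tumours often carry reduced class I expression.

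Values are FPKM, a fragment count scaled to transcript length and library size, as the authors deposited them, and the number of reads behind each value is unknown. The FPKM sum of a library ran from 291276 to 366532 in the 12 sorted libraries and from 634746 to 652082 in SUM159PT, whose mean was 2.00 times that of the sorted libraries. Genes above 1 FPKM numbered 11249 to 11997 in the sorted libraries and 8534 to 8670 in SUM159PT. Pearson correlations between libraries of the same group were at least 0.987. The p-values measure only the spread between these libraries, since the labels do not say that replicates were separate cultures.

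The fractions were checked against the markers they were sorted by. CD24 averaged 7.74 ± 0.198 FPKM (SD, n = 3 here and below) in SUM149PT CSC and 139 ± 6.53 FPKM in non-CSC, and 23.3 ± 0.747 against 150.04 ± 14.3 FPKM in HCC1937. Both differences were called by limma (log2 fold changes of -4.15 and -2.67, adjusted p = 1.4e-06 and 0.000128). CD44 was higher in SUM149PT CSC (84.4 against 64.5 FPKM, log2 fold change 0.39, adjusted p = 0.00168), and its difference in HCC1937 was not called (106 against 97.8 FPKM, 0.12, adjusted p = 0.314). SUM159PT had 0.729 FPKM of CD24 and 28.8 FPKM of CD44, the lowest CD44 mean of the 5 groups.

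All 5 of 5 epithelial markers (EPCAM, CDH1, KRT5, KRT8 and KRT18) were lower in CSC of both lines, with median log2 fold changes of -4.44 in SUM149PT and -1.52 in HCC1937. Their summed level was 85.9 to 92.0 FPKM in SUM149PT CSC and 673 to 680 FPKM in non-CSC. In HCC1937 the sum was 432 to 515 FPKM in CSC and 1244 to 1453 FPKM in non-CSC, and in SUM159PT it was 277 to 292 FPKM. EPCAM and CDH1 were near 0 in SUM159PT, at means of 0.0467 and 0.0681 FPKM. Of the receptors whose absence defines the triple negative class, PGR did not pass 0.00303 FPKM in any library, ESR1 means lay between 0.00687 and 1.66 FPKM, and ERBB2 means lay between 3.55 and 19.1 FPKM. In bulk RNA, fewer cells of a type and less RNA per cell cannot be told apart.

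Leukocytes carry abundant class I transcripts, so 10 leukocyte markers were read as well. CD3E, MS4A1 and TYROBP were listed at 0 in all 15 libraries, and the 9 markers other than CD14 did not pass 0.435 FPKM in any library. CD14 was the most abundant, with means of 2.66 FPKM in SUM149PT CSC, 51.3 in SUM149PT non-CSC, 60.3 in HCC1937 CSC, 30.3 in HCC1937 non-CSC and 18.7 in SUM159PT. The summed level of the list was 2.72 to 3.42 FPKM in SUM149PT CSC, 49.0 to 53.4 in SUM149PT non-CSC, 53.9 to 65.4 in HCC1937 CSC, 29.1 to 33.2 in HCC1937 non-CSC and 17.1 to 20.2 in SUM159PT. The common leukocyte marker PTPRC did not pass 0.0986 FPKM. The 4 endothelial markers (PECAM1, VWF, CDH5 and KDR) summed to at most 1.83 FPKM in any library. Their sum was 0.162 to 0.171 FPKM in SUM149PT CSC and 1.59 to 1.83 FPKM in SUM149PT non-CSC. All 3 tested there were called lower in CSC (PECAM1 -1.20, VWF -2.48 and CDH5 -2.70), against 41.5% of all genes tested. In HCC1937 CSC, CDH5 was called lower (-1.28) and PECAM1 was not called (0.23). VWF in SUM149PT and CDH5 in both lines passed the minimum mean of 0.1 FPKM through non-CSC only. Their tests thus add nothing to the levels. CD14 was lower in SUM149PT CSC (log2 fold change -4.23) and higher in HCC1937 CSC (0.99), both called, while CSF1R was called lower in HCC1937 CSC (-1.01, adjusted p = 0.0361). The part of the leukocyte, endothelial and epithelial marker differences in the members' levels was not tested.

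Of the 9 members, 8 lie in the major histocompatibility complex (MHC) on chromosome 6, and B2M lies on chromosome 15. The table treats this region unlike the rest of the genome. Between GABBR1 and KIFC1 (GRCh38 chr6:29555629-33409924, 3.85 megabases) it holds 147 protein-coding genes, of which 61 (41.5%) were listed at 0 in all 15 libraries. Elsewhere in the genome 2181 of 18187 protein-coding genes (12%) were at 0 in all libraries, and 99 of 829 (11.9%) on the rest of chromosome 6. A list of 10 MHC genes that most cells use, chosen after values were seen, had 8 at 0 throughout, and BAG6 and RPS18 had group means of at most 0.516 FPKM. Because of that choice, the list names examples only, and its count adds nothing to the shares above.

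Genes of the region that were measured had larger differences and more spread between libraries, and a smaller share of them was called. In SUM149PT, 46 of 57 tested genes of the region (80.7%) had log2 fold changes of 1 or more, in either direction, between CSC and non-CSC, against 4379 of 12770 elsewhere (34.3%). The median residual SD was 0.682 in the region and 0.106 elsewhere, on the log2 scale. In HCC1937 the shares were 15 of 50 (30.0%) against 10.1%, with median residual SDs of 0.484 and 0.127. Of the tested genes of the region 66.7% were called in SUM149PT and 14% in HCC1937, against 78.1% and 28.3% elsewhere. GRCh38 carries alternate haplotype sequences for the MHC, and how reads that match several places were counted is not given in the sources used here. The part this plays in the levels of the 8 members in the region was not tested.

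**Figure D1:**
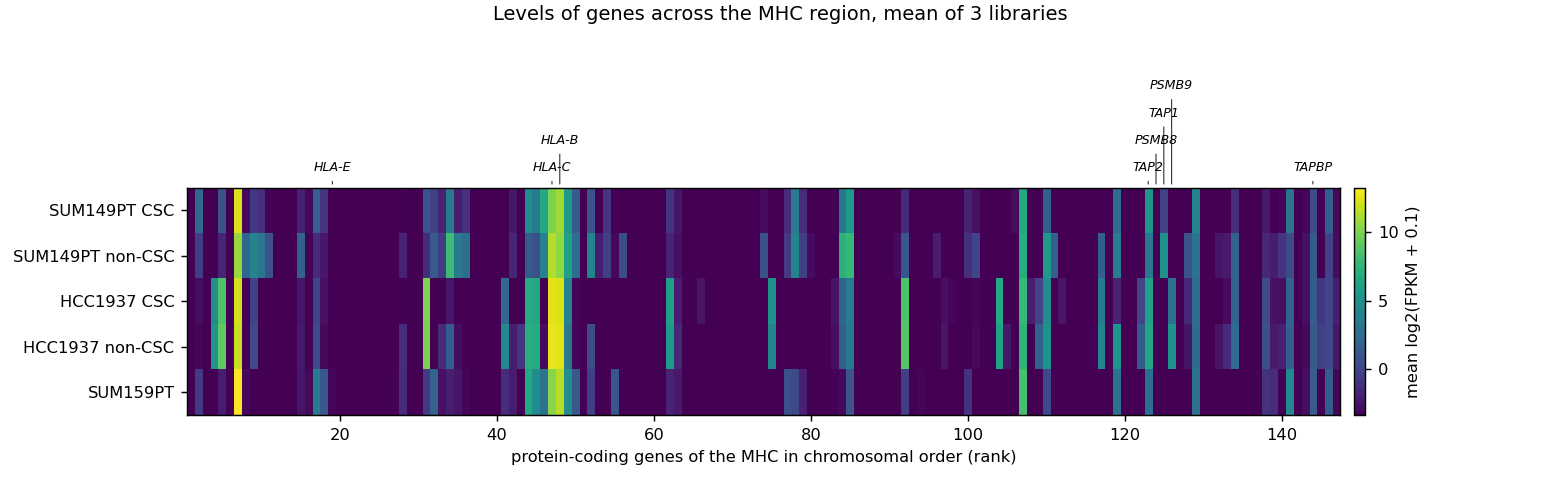
Heat map of group means of log2(FPKM + 0.1) for the 147 protein-coding genes of the MHC region in chromosomal order, with the 5 groups on the other axis and the members labelled. Genes listed at 0 in all 15 libraries (61 of 147) appear at the bottom of the colour scale beside HLA-B and HLA-C at 948 FPKM or more in every library.

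Levels of each member in each library are given next, in the order in which class I molecules are built. The heavy chains come first. HLA-B and HLA-C encode classical heavy chains, which hold the peptide and face the T cell receptor, and HLA-E encodes a non-classical heavy chain read mainly by natural killer cells. HLA-B (chr6:31353875-31357179, minus strand) and HLA-C (chr6:31268749-31272092, minus strand) are close relatives. The gene model of HLA-B in GENCODE release 29 (on GRCh38) overlaps that of HLA-C on the same strand by 2640 of 3382 bases, and 30 of the 1498 windows of 50 bases in the HLA-B transcript (2.00%) also occur in HLA-C.

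HLA-B was at 1801, 2063 and 1927 FPKM in replicates 1, 2 and 3 of SUM149PT CSC and at 1434, 1352 and 1390 FPKM in those of SUM149PT non-CSC. In HCC1937 it was at 5882, 5206 and 5094 FPKM in CSC and 5402, 5929 and 5179 FPKM in non-CSC, and in SUM159PT at 2784, 3104 and 2624 FPKM. As deposited, HCC1937 was highest with both fractions overlapping, SUM159PT came next, and SUM149PT CSC lay above SUM149PT non-CSC without overlap. SUM159PT fell below SUM149PT CSC under quantile normalization (-1.33) and after rescaling to a common sum (-0.54). In SUM149PT the difference was 1.38-fold (log2 fold change 0.47, SE 0.0705, adjusted p = 0.0015), higher in 3 of 3 CSC libraries. In HCC1937 it was not called (-0.03, adjusted p = 0.848), and its sign changed under quantile normalization and under rescaling to a common sum, and when non-CSC replicate 2 (0.0252) or CSC replicate 3 (0.0103) was left out.

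HLA-C went the other way in SUM149PT, with 948, 1066 and 983 FPKM in CSC and 2681, 2539 and 2471 FPKM in non-CSC. HCC1937 had 6322, 5989 and 5796 FPKM in CSC and 6763, 7397 and 6463 FPKM in non-CSC, and SUM159PT had 1326, 1270 and 1246 FPKM. As deposited, no neighbouring groups overlapped, with HCC1937 non-CSC highest, then HCC1937 CSC, SUM149PT non-CSC, SUM159PT and SUM149PT CSC, the last pair in reverse order under quantile normalization (-1.17) and after rescaling to a common sum (-0.73). HLA-C was 2.57-fold lower in SUM149PT CSC (log2 fold change -1.36, SE 0.07, adjusted p = 1.98e-05). In HCC1937 the difference was not called (-0.19, adjusted p = 0.156) and its sign changed under quantile normalization (0.32).

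HLA-E (chr6:30489509-30494194, plus strand) was listed at 0 in 13 libraries, at 0.0239 FPKM in SUM149PT CSC replicate 3 and at 0.0512 FPKM in SUM159PT replicate 1. It did not reach the minimum mean of 0.1 FPKM for a test.

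**Figure D2:**
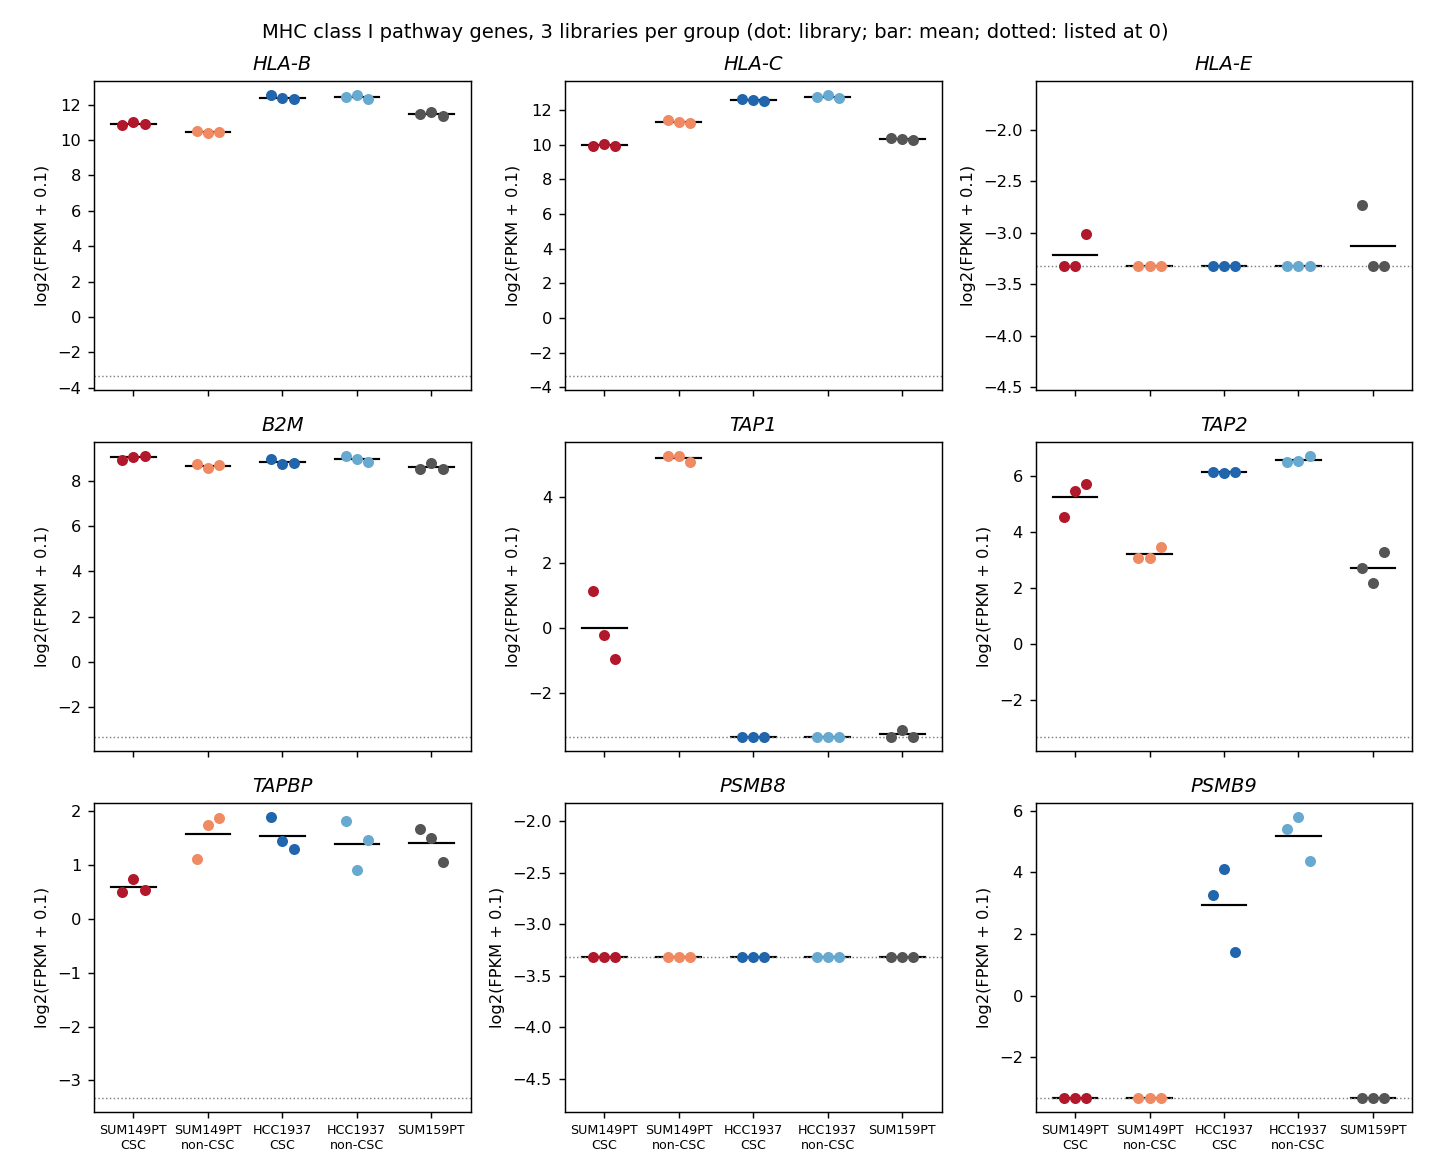
Level of each of the 9 members as log2(FPKM + 0.1), 1 panel a gene, with a dot for each of the 3 libraries of a group, a bar at the group mean and a dotted line where a gene is listed at 0. HLA-B, HLA-C and B2M are high everywhere, TAP1 is above 1 FPKM only in SUM149PT, PSMB9 only in HCC1937, and PSMB8 is at 0 in all 15 libraries.

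Since HLA-B and HLA-C differ in direction in SUM149PT, and TAP1 and PSMB9 are seen in different lines, the sequence before their starts is shown. The 250 bases before the start of 8 of the 9 members were found in the RefSeq promoter table (GRCh38.p14), all but HLA-E. The strings run 5′ to 3′ on the gene's strand, with capitals marking matches, on either strand, to 2 sets of letters: AANNGAAA (interferon regulatory factor core) and GGGNNTTNCC (NF-kappaB). Of 35116 promoter windows of this length, 20.3% hold the first and 5.07% the second. HLA-B is read from chr6:31357180-31357429, HLA-C from chr6:31272093-31272342, TAP1 from chr6:32853705-32853954 (all minus strand) and PSMB9 from chr6:32853942-32854191 (plus strand).
HLA-B: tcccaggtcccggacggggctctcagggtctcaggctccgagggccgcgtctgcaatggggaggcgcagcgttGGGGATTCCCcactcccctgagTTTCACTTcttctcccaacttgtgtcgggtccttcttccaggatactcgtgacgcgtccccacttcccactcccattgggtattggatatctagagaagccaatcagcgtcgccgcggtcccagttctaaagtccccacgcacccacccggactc
HLA-C: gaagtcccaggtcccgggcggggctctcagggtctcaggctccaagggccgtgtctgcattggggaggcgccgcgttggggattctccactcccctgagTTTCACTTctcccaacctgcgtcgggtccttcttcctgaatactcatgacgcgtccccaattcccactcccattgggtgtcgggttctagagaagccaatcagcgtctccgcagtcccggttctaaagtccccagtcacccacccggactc
TAP1: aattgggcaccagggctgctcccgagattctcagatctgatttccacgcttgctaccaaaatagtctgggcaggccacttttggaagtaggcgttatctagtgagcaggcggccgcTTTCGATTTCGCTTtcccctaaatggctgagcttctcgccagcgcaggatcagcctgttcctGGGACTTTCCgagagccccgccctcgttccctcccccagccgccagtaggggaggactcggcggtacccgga
PSMB9: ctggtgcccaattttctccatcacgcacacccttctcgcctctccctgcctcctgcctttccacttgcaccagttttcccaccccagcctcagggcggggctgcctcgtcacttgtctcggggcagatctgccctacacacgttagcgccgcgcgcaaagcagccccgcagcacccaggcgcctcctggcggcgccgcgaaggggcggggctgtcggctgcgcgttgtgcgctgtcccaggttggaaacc

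The HLA-B and HLA-C windows are identical at 226 of 246 aligned bases, 89.0% of the alignment with its gaps. HLA-B holds 1 NF-kappaB match, which starts 177 bases before the gene, and 1 interferon regulatory factor match at 155 bases, while HLA-C holds only the latter, at 151 bases. TAP1 holds 2 overlapping interferon regulatory factor matches at 134 and 128 bases and 1 NF-kappaB match at 72 bases. PSMB9 holds neither set of letters in its 250 bases. The TAP1 window lies between the starts of TAP1 and PSMB9, which are 487 bases apart on opposite strands. The TAP1 matches thus also lie before the PSMB9 start, farther than 250 bases from it. Of the members not printed, B2M and TAPBP hold 2 interferon regulatory factor matches and 1 NF-kappaB match each, TAP2 holds 2 and 0, and PSMB8 holds 0 of either in the window at its start. A match is a description of letters, and binding was not measured.

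B2M (chr15:44711517-44718145, plus strand) encodes beta-2 microglobulin, the light chain that every class I heavy chain needs to reach the surface. It was at 496, 544 and 553 FPKM in SUM149PT CSC and at 433, 386 and 417 FPKM in non-CSC. HCC1937 had 512, 439 and 444 FPKM in CSC and 554, 505 and 467 FPKM in non-CSC, and SUM159PT had 377, 448 and 372 FPKM. As deposited, the 15 libraries spanned 1.49-fold, the smallest span of the members seen in every library. Neighbouring groups overlapped except HCC1937 CSC and SUM149PT non-CSC. After rescaling to a common sum, the log2 fold change of SUM159PT against SUM149PT CSC reached -1.51. In SUM149PT the level was 1.29-fold higher in CSC (log2 fold change 0.37, SE 0.0749, adjusted p = 0.00553), which was not called under quantile normalization (0.18, adjusted p = 0.0503, from 0.00145 to 0.0503 over the alternatives). In HCC1937 it was not called (-0.13, adjusted p = 0.411) and was 0.00492 under quantile normalization.

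TAP1 and TAP2 encode the 2 chains of the peptide transporter, and TAPBP encodes tapasin, which holds the empty class I molecule beside it. TAP1 (chr6:32845209-32853704, minus strand) was at 2.09, 0.764 and 0.414 FPKM in SUM149PT CSC and at 38.1, 37.8 and 33.7 FPKM in SUM149PT non-CSC. It was listed at 0 in all 6 HCC1937 libraries and in SUM159PT replicates 1 and 3, with 0.0151 FPKM in replicate 2. All non-CSC libraries of SUM149PT thus lay far above every other library, and HCC1937 gave no test. The SUM149PT level was 37.0-fold lower in CSC (log2 fold change -5.21, SE 0.519, adjusted p = 0.000257). It was called under every alternative, with values from -5.78 without CSC replicate 1 to -4.25 with a pseudocount of 1.

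TAP2 (chr6:32821831-32838739, minus strand) had 23.5, 44.5 and 52.9 FPKM in SUM149PT CSC and 8.37, 8.36 and 11 FPKM in non-CSC. HCC1937 had 71.9, 69.1 and 71.9 FPKM in CSC and 92.6, 93.5 and 106 FPKM in non-CSC, and SUM159PT had 6.46, 4.41 and 9.78 FPKM. The levels fell from HCC1937 non-CSC over HCC1937 CSC and SUM149PT CSC to SUM149PT non-CSC without overlap, and the last overlapped SUM159PT. TAP2 was 4.13-fold higher in SUM149PT CSC (log2 fold change 2.04, SE 0.322, adjusted p = 0.00184), opposite to TAP1. In HCC1937 it was 1.37-fold lower in CSC (-0.45, SE 0.0793, adjusted p = 0.0107), a call with adjusted p from 0.00262 to 0.292 over the alternatives, lost under quantile normalization (0.0508), after rescaling to a common sum (0.0937) and in a fit over all 15 libraries (0.292). Of the 2448 windows of 50 bases in the TAP2 transcript, 1964 (80.2%) also occur in another gene of the annotation. These lie in 2 genes, 1 of them TAP1, which shares 31.

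TAPBP (chr6:33299694-33314078, minus strand) was low throughout, at 1.31, 1.57 and 1.36 FPKM in SUM149PT CSC and 2.07, 3.27 and 3.58 FPKM in non-CSC. HCC1937 had 3.61, 2.63 and 2.36 FPKM in CSC and 3.41, 1.79 and 2.66 FPKM in non-CSC, and SUM159PT had 3.08, 2.73 and 1.98 FPKM. As deposited, SUM149PT CSC lay below the rest without overlap, and the other groups overlapped, but after rescaling to a common sum SUM159PT was lower than SUM149PT CSC (-0.23, not called). The SUM149PT level was 1.99-fold lower in CSC (log2 fold change -0.99, SE 0.212, adjusted p = 0.00672). In HCC1937 it was not called (0.15, adjusted p = 0.733), and its sign changed without CSC replicate 1 (-0.0245) or without non-CSC replicate 2 (-0.0923).

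PSMB8 and PSMB9 encode catalytic subunits that replace the standard PSMB5 and PSMB6 in the immunoproteasome, a form that favours peptides suited to class I binding. PSMB8 (chr6:32840717-32844679, minus strand) was listed at 0 in all 15 libraries. PSMB9 (chr6:32854192-32859851, plus strand) was listed at 0 in all SUM149PT and SUM159PT libraries, and at 9.43, 17.2 and 2.58 FPKM in HCC1937 CSC and 42.5, 55.7 and 20.6 FPKM in non-CSC. The CSC libraries lay below the non-CSC libraries without overlap, and the libraries of each fraction differed widely. The level was 4.80-fold lower in HCC1937 CSC, which was not called (log2 fold change -2.26, SE 0.76, adjusted p = 0.0839). The value was -1.51 without CSC replicate 3 and -2.86 without CSC replicate 2. Over the alternatives its adjusted p ran from 0.0056 to 0.214. PSMB9 was called with a pseudocount of 1 (adjusted p = 0.0403), with a trended prior (0.0395), with replicate number as a term (0.021) and in the fit over all 15 libraries (0.0056). The last fit also draws its spread from the 9 libraries that list PSMB9 at 0, so its smaller p adds nothing to the HCC1937 values.

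TAP1 and PSMB9 start 487 bases apart on opposite strands, and their GENCODE models overlap by 8770 bases. TAP1 was seen in SUM149PT and PSMB9 in HCC1937, with 0.0151 FPKM of TAP1 in 1 SUM159PT library as the only value of either above 0 outside these lines. The model of PSMB9 also overlaps that of PSMB8, by 568 bases. The part of these overlaps in the levels was not tested.

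Ratios of the inducible to the standard subunit within a library do not depend on how libraries are scaled to each other. PSMB9 over PSMB6 was 0.0642, 0.124 and 0.0203 in HCC1937 CSC and 0.281, 0.363 and 0.146 in non-CSC, a log2 difference of -2.15 (-1.46 without CSC replicate 3, -2.74 without CSC replicate 2). PSMB10, the inducible partner of PSMB7 and encoded outside the MHC, gave ratios of 0.248, 0.288 and 0.250 in SUM149PT CSC against 0.322, 0.313 and 0.345 in non-CSC (-0.32), and 0.180, 0.186 and 0.164 against 0.339, 0.338 and 0.265 in HCC1937 (-0.82). All 3 ratios were lower in CSC, with no overlap. A two-sided exact permutation test gave p = 0.1 for each (adjusted p = 0.1), the smallest value 3 against 3 libraries allow. Of 6 planned ratios, the 3 with PSMB8 or with PSMB9 in SUM149PT were not run because the subunit is listed at 0.

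**Figure D3:**
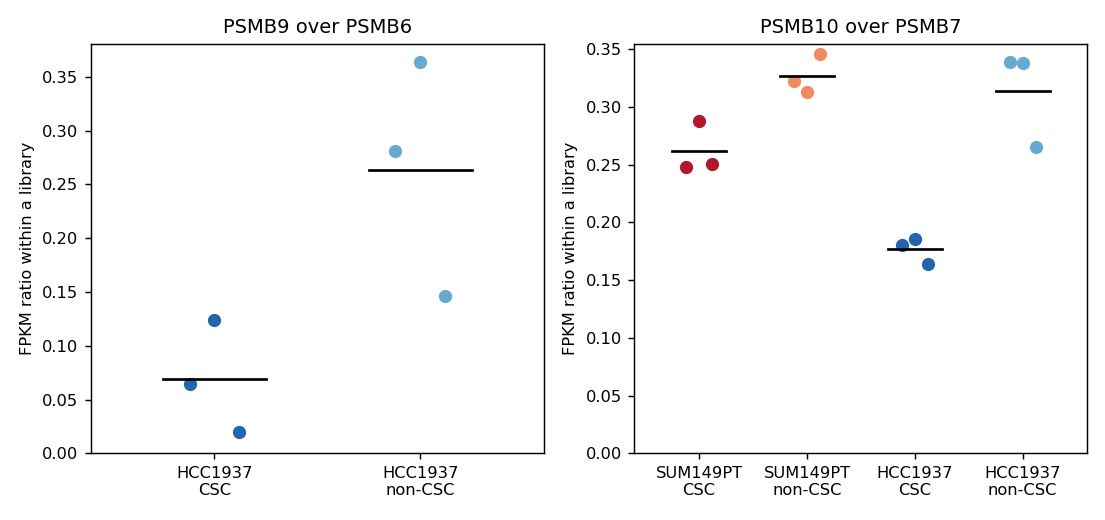
Ratio of FPKM of the inducible to the standard proteasome subunit in each library of CSC and non-CSC, for PSMB9 over PSMB6 in HCC1937 and PSMB10 over PSMB7 in both lines. CSC libraries lie below non-CSC libraries in every panel, from 0.0203 to 0.124 against 0.146 to 0.363 for PSMB9 over PSMB6.

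Comparing fractions within a line asks how class I genes differ between stem-like and other cells. Fold changes here are on the scale of log2(FPKM + 0.1), which understates the change of low genes. A gene is called when its p, adjusted over every gene tested in that comparison, is 0.05 or less. In SUM149PT, 6 of 9 members were tested and 6 were called, against 74.8% of all 16037 genes tested. HLA-B, B2M and TAP2 were higher in CSC and HLA-C, TAP1 and TAPBP lower, against 33.3% of genes called higher and 41.5% lower. The excess of lower calls over all genes turned round under quantile normalization (6643 higher and 5466 lower). It stayed under upper quartile scaling and after rescaling to a common sum. HLA-E, PSMB8 and PSMB9 were not tested for lack of signal. A stricter pair of limits joins the study's limit on the adjusted p, 1e-04, to a log2 fold change of 1 or more in either direction, the latter chosen here where the study used an enrichment score. Both were met by HLA-C alone, and by 20.5% of all genes. The members' median log2 fold change was -0.31, against -0.11 for all genes.

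In HCC1937, 6 of 9 members were tested and TAP2 alone was called, lower in CSC, against 25.6% of 15582 genes (10.3% called higher and 15.3% lower). The excess of lower calls over all genes turned round under quantile normalization (2388 higher and 2117 lower) and after rescaling to a common sum (2239 and 1755). It stayed under upper quartile scaling (1637 and 2393). HLA-E, PSMB8 and TAP1 were not tested. By the stricter limits limma called 0 members and 0 of all genes (0%), while 2 members and 5886 genes had an unadjusted p under 0.05. The 0 belongs to this fit on log2(FPKM + 0.1) and these limits. The study, by its own cutoffs, did report genes that differed between the HCC1937 fractions. The median was -0.16 for the tested members and -0.03 for all genes.

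The difference of the CSC effect between lines, tested directly over the 12 sorted libraries, was called for 7 of 7 tested members, against 61.1% of 16451 genes, 5 of them with levels above 0 in each group. For TAP1 and PSMB9, which are at 0 in HCC1937 and in SUM149PT respectively and passed the minimum through the other line only, there are not 2 effects to compare. The CSC effect in SUM149PT exceeded that in HCC1937 by 0.50 for HLA-B (adjusted p = 0.00345), 0.50 for B2M (0.00632) and 2.50 for TAP2 (0.000169) on the log2 scale. It was lower for HLA-C (-1.17, adjusted p = 5.68e-06; -2.36 under quantile normalization) and TAPBP (-1.14, 0.0218). The calls of HLA-B, B2M and TAPBP were lost under quantile normalization (adjusted p = 0.588, 0.0883 and 0.0570, each the highest over the alternatives), and that of TAPBP also without SUM149PT non-CSC replicate 3 (-0.99, adjusted p = 0.0523) or HCC1937 CSC replicate 1 (-0.97, 0.0501).

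**Figure D4:**
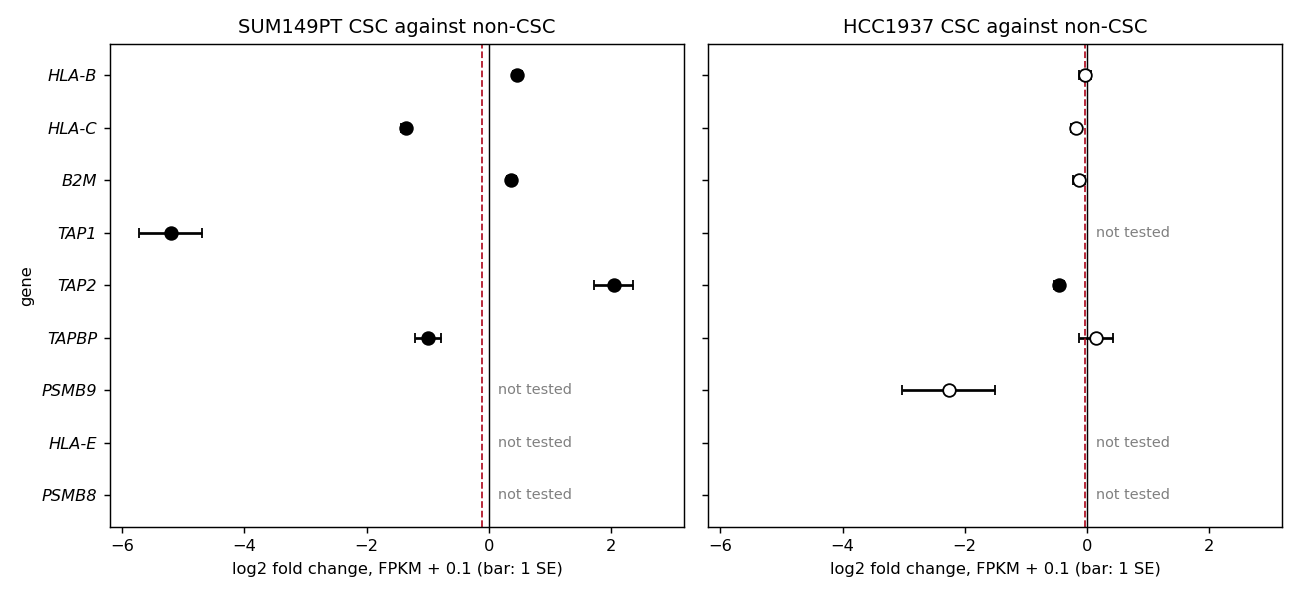
Log2 fold change of CSC over non-CSC, on FPKM + 0.1, with bars of 1 SE, for each member in SUM149PT and HCC1937. Filled points are called, open points are not, the dashed red line is the median of all genes, and members without signal are marked as not tested; TAP1 stands at -5.21 in SUM149PT and TAP2 at 2.04.

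Between lines at the same fraction, 6 of 7 tested members were called for HCC1937 CSC against SUM149PT CSC (76.9% of 16373 genes) and 6 of 7 for non-CSC (76.8%). Without TAP1 and PSMB9, which have a group at 0, 4 of 5 were called in each. HLA-B was 2.79-fold higher in HCC1937 CSC (log2 fold change 1.48, adjusted p = 6.47e-09) and 3.95-fold higher in HCC1937 non-CSC (1.98, 5.06e-10; 1.35 under quantile normalization). HLA-C was 6.04-fold (2.60, 6.37e-12) and 2.68-fold higher (1.42, 1.63e-09; 0.56 under quantile normalization). TAP2 was 1.86-fold (0.89, 0.0149) and 10.5-fold higher (3.39, 3.31e-07), the first lost without SUM149PT CSC replicate 1 (0.55, adjusted p = 0.0700) and under upper quartile scaling (0.0659). TAPBP was higher in HCC1937 CSC (0.95, 0.00483) and not called in non-CSC (-0.19, 0.526), where its sign changed without HCC1937 non-CSC replicate 2 (0.0550). B2M was not called in CSC (-0.19, 0.0866), where it was called without HCC1937 CSC replicate 1 (-0.27, 0.0339), under upper quartile scaling (-0.44, 0.000668) and after rescaling to a common sum (-0.28, 0.00656), and its sign changed under quantile normalization (0.0468). In non-CSC it was 0.30 higher (0.0131), a call lost without SUM149PT non-CSC replicate 2 (0.26, 0.0527) or HCC1937 non-CSC replicate 1 (0.24, 0.0599). The call was also lost under upper quartile scaling (log2 fold change 0.0650, adjusted p = 0.521) and after rescaling to a common sum (0.14, adjusted p = 0.135).

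SUM159PT differs from the other groups in line and in sorting together, which cannot be told apart. Against SUM149PT CSC 6 of 7 tested members were called (81.7% of genes), and against HCC1937 CSC 5 of 7 (84.8%). PSMB9 is at 0 in SUM159PT, and TAP1 is at 0 in HCC1937 and in 2 of 3 SUM159PT libraries. Among members above 0 in every library compared 5 of 5 and 4 of 5 were called. These comparisons share the 3 SUM159PT libraries. Against SUM149PT CSC, HLA-B (0.55, adjusted p = 5.42e-05) and HLA-C (0.36, 0.000394) were higher in SUM159PT as deposited and lower under quantile normalization (-1.33 and -1.17) and after rescaling to a common sum (-0.54 and -0.73), and TAPBP was higher (0.82, 0.0111; 1.97 under quantile normalization) but lower after that rescaling (-0.23). TAP2 (-2.53, 3.63e-06; from -3.62 to -2.12 over the alternatives) and B2M (-0.42, 0.00148) were lower. B2M was not called under upper quartile scaling (-0.11) and reached -1.51 after rescaling to a common sum. Against HCC1937 CSC, HLA-B (-0.93, 3.47e-07), HLA-C (-2.24, 5.14e-12) and TAP2 (-3.42, 1.63e-07) were lower in SUM159PT. Over the alternatives these values ran from -2.63 to -0.38, from -3.93 to -1.69 and from -4.43 to -2.88. B2M was lower there too (-0.22, 0.0477), but higher under upper quartile scaling (0.33), lower still under quantile normalization (-1.34), and its call was lost without SUM159PT replicate 1 or 3 or HCC1937 CSC replicate 1 or 3 (adjusted p of 0.0520 to 0.183), with a pseudocount of 0.01 (0.0503), with no expression minimum (0.0597) and with replicate number as a term (0.0630). TAPBP was not called (-0.14, 0.632), but was called lower after rescaling to a common sum (-1.13, 0.00162) and called higher under quantile normalization (1.23, 0.000718), and its sign also changed under upper quartile scaling (0.39) and without SUM159PT replicate 3 (0.0385) or HCC1937 CSC replicate 1 (0.0358). In these line comparisons TAP1 passed the minimum through SUM149PT only and PSMB9 through HCC1937 only.

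Other genes of the pathway were counted by lists. Of all genes tested, 33.3% were called higher and 41.5% lower in SUM149PT CSC (median -0.11), and 10.3% and 15.3% in HCC1937 CSC (median -0.03). Of 14 further class I pathway genes (peptide trimming, loading and non-classical chains), 13 were tested, with HLA-G at 0. In SUM149PT 7 were higher in CSC, 3 lower and 3 not called (median 0.50), and in HCC1937 2 were higher, 3 lower and 8 not called (median 0.02). LNPEP, a peptide-trimming aminopeptidase, had 2.26, 1.73 and 2.03 FPKM in SUM149PT CSC and 0.253, 0.171 and 0.278 in non-CSC (log2 fold change 2.66, adjusted p = 3.47e-05, from 1.28 to 3.12 over the alternatives). HLA-F, a non-classical heavy chain gene of the MHC, had 1.46, 3.28 and 1.32 FPKM in SUM149PT CSC against 0.260, 0.119 and 0.327 in non-CSC (2.60, 0.00195, from 1.24 to 3.05 over the alternatives), and 432, 416 and 330 FPKM against 566, 631 and 542 FPKM in HCC1937 (-0.57, 0.0257). It was thus at least 330 FPKM in HCC1937 and at most 3.28 FPKM in SUM149PT, and SUM159PT had 0, 1.47 and 0 FPKM. THOP1, which degrades cytosolic peptides, was higher in SUM149PT CSC (1.42, 1.32e-05), and ERAP1, which trims peptides in the endoplasmic reticulum, was higher in CSC of both lines (0.91, 4.87e-05 and 0.27, 0.0495). PSMB10 was lower in CSC of both lines (-0.40, 0.0329 and -0.75, 0.0313). By their values, and not by the naming rule, CALR (-0.38) and PDIA3 (-0.67), parts of the loading complex, were the other 2 lower genes in SUM149PT, and CANX was called higher (0.57) and NPEPPS lower (-0.65) in HCC1937.

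Of 14 regulators of class I genes, 9 were higher in SUM149PT CSC, 4 lower and 1 not called (median 0.31, against 33.3% higher, 41.5% lower and a median of -0.11 for all genes). In HCC1937 2 were higher, 3 lower and 9 not called (median 0.02, against 10.3%, 15.3% and -0.03). IRF1, an interferon-induced activator, had 53.2, 57.8 and 51.9 FPKM in SUM149PT CSC against 27.8, 28.0 and 27.7 in non-CSC (0.96, adjusted p = 4.52e-05), and 18.8, 18.7 and 18.1 against 23.3, 25.9 and 24.2 in HCC1937 (-0.40, 0.0106). The fractions moved in opposite directions in the lines, and the HCC1937 call was lost after rescaling to a common sum (0.0558). NLRC5, the class I transactivator, had 4.49, 4.21 and 4.30 FPKM in SUM149PT CSC against 1.98, 2.27 and 2.44 in non-CSC (0.93, 0.00021) and was not called in HCC1937 (0.19, 0.0874). NFKB1 was higher in SUM149PT CSC (1.39, 1.18e-05), and RFXANK, part of the complex that binds class I promoters with NLRC5, was lower in CSC of both lines (-1.02, 0.000356 and -0.43, 0.0445). Outside the naming rule and by their values, RFXAP, STAT2 and RELA were the other lower regulators in SUM149PT, while in HCC1937 IFNGR1 and IFNGR2 were higher and IRF9 (-0.70) lower. IFNGR2 had means of only 0.177 FPKM in HCC1937 CSC and 0.0507 in non-CSC (adjusted p = 0.0442). It passed the minimum through CSC only, so its test adds nothing to these levels. The 2 higher regulators, IFNGR2 among them, became 1 in 13 of 17 alternatives.

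**Figure D5:**
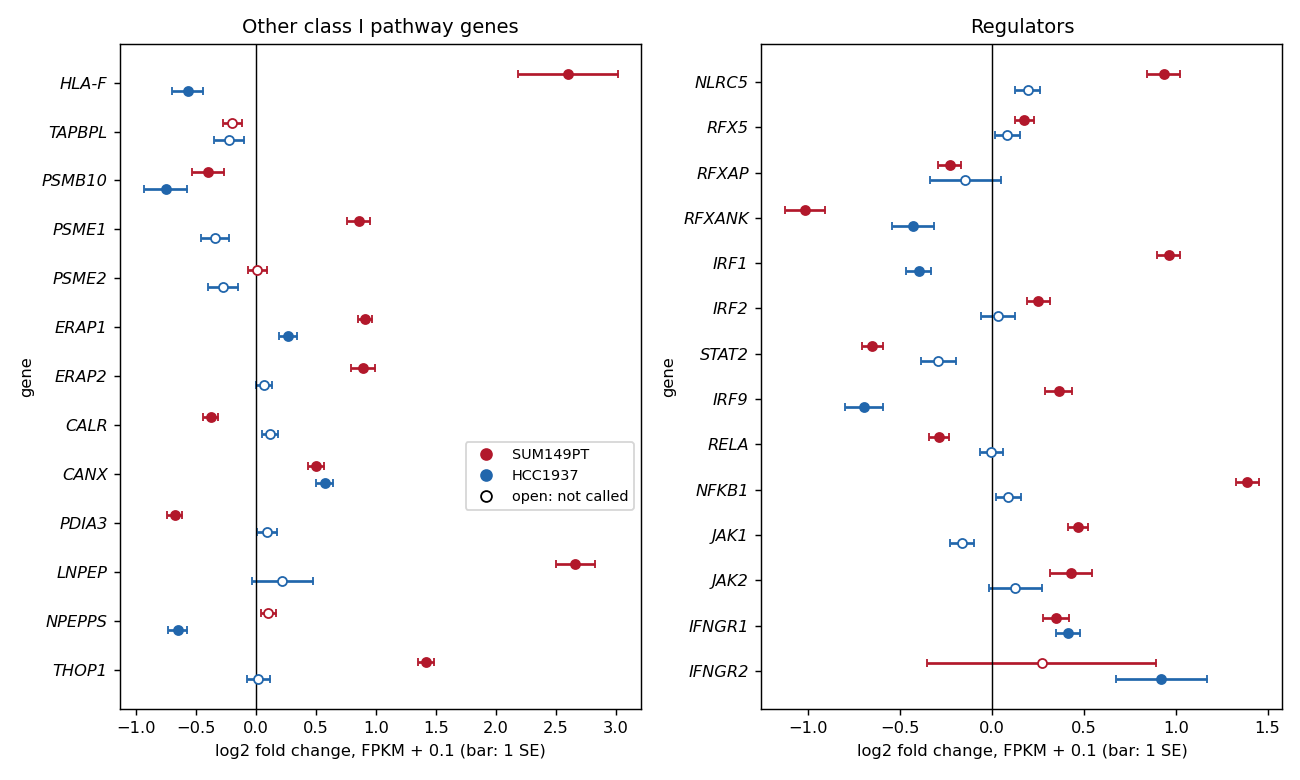
Log2 fold change of CSC over non-CSC, on FPKM + 0.1 with bars of 1 SE, for the other class I pathway genes and the regulators, in red for SUM149PT and blue for HCC1937, with open points not called. HLA-F (2.60 and -0.57) and IRF1 (0.96 and -0.40) are called in opposite directions in the lines, the HCC1937 call of HLA-F being lost in the fit over all 15 libraries and that of IRF1 after rescaling to a common sum.

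Several of these HCC1937 calls were lost with 1 library fewer, while the log2 fold changes kept their direction. ERAP1 was not called without any 1 of the 6 libraries (0.21 to 0.31, adjusted p of 0.0709 to 0.139), and RFXANK without any but non-CSC replicate 3 (-0.53 to -0.36 over the 6 fits, adjusted p up to 0.135). HLA-F was not called without non-CSC replicate 1, 2 or 3 or CSC replicate 2 (-0.64 to -0.45 over the 6 fits, adjusted p up to 0.0869) or in the fit over all 15 libraries (0.665), and PSMB10 without CSC replicate 2 or 3 or non-CSC replicate 1 or 2 (-0.89 to -0.62 over the 6 fits, adjusted p up to 0.103). Over all alternatives the called genes were as few as 1 higher and 1 lower of the pathway genes and 1 higher and 2 lower of the regulators. In SUM149PT, PSMB10 was not called without CSC replicate 1 or 3 or non-CSC replicate 1 or 3 (up to 0.0903) or with replicate number as a term (0.0739). Other alternatives also ended HCC1937 calls, among them the replicate term for ERAP1 (0.105) and RFXANK (0.0737) and the fit over all 15 libraries for ERAP1 (0.158).

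Of 14 standard proteasome core subunits 13 were tested, with PSMB3, outside the MHC, listed at 0 in all 15 libraries. In SUM149PT 4 were higher in CSC, 4 lower and 5 not called (median -0.03), against 33.3% higher and 41.5% lower of all genes. In HCC1937 limma called 0 of 13 (median -0.02), against 25.6% of all genes, with 0 at an unadjusted p under 0.05. PSMB6 (-1.07, adjusted p = 0.000164), PSMA7 (-0.82, 0.000261) and PSMA4 (-0.69, 0.000444) were lower in SUM149PT CSC and PSMB5 (0.50, 0.00323) was higher, while PSMB7 was not called (-0.08, 0.397). PSMB2 was the other lower subunit and PSMA1, PSMA6 and PSMB1 the other higher ones, named after their values were seen.

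MHC class II genes, which present peptides from outside the cell, were at 0 in all libraries for 4 of 10, and 4 were tested in each line. CD74, the class II invariant chain, was higher in SUM149PT CSC (0.97, adjusted p = 0.0244) and lower in HCC1937 CSC (-1.66, 0.000462), and HLA-DQB1 was not called in SUM149PT. HLA-DRB1 was listed at 0 in all SUM149PT CSC libraries and at 6.30, 1.07 and 3.87 FPKM in non-CSC, and HLA-DMA at 0 against 2.74, 1.91 and 1.13 FPKM. Both passed the minimum through non-CSC only, so their tests add nothing to these levels. In HCC1937 CD74 and HLA-DQB1 were lower, against 15.3% of all genes, and 2 were not called, with HLA-DQB1 at 0, 0 and 3.08 FPKM in CSC against 62.9, 52.7 and 21.7 in non-CSC (-7.04, 0.0188). The HLA-DQB1 call was lost without CSC replicate 1 or 2 or non-CSC replicate 1 or 2 (up to 0.0692) and with replicate number as a term (0.0647), and its value was -8.70 without CSC replicate 3, -9.26 with a pseudocount of 0.01 and -4.74 with a pseudocount of 1. The CD74 value in SUM149PT ran from 0.38 to 1.52 over the alternatives, and its call was lost without CSC replicate 1, 2 or 3 or non-CSC replicate 1 (up to 0.0690).

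Of 7 interferon genes, 0 were tested in SUM149PT and 4 in HCC1937, where 3 were lower in CSC, against 15.3% of all genes, and 1 was not called. IFNL1 had 0.602, 0.670 and 0.730 FPKM in HCC1937 CSC against 3.71, 2.71 and 2.71 in non-CSC (-2.02, adjusted p = 0.000602). IFNL2 had 0.0681, 0 and 0.370 FPKM against 1.49, 1.23 and 0.952 (-2.71, 0.0202), and IFNL3 had 0.473, 0 and 0.107 FPKM against 2.07, 1.36 and 0.751 (-2.61, 0.0442). All 3 lay lower in every CSC library than in any non-CSC library. The IFNL2 call was lost without CSC replicate 1 or any non-CSC replicate (up to 0.0735), and the IFNL3 call without any library but CSC replicate 1 (up to 0.132). Both were also lost with a pseudocount of 0.01 (0.0796 and 0.116), IFNL2 with replicate number as a term (0.0602), and IFNL3 with no expression minimum (0.0600) and after rescaling to a common sum (0.0716). With pseudocounts of 0.01 and 1 the values were -4.18 and -0.96 for IFNL2, -3.97 and -0.99 for IFNL3 and -2.16 and -1.27 for IFNL1. The value of IFNL2 was -3.33 without CSC replicate 3, and that of IFNL3 -2.01 without CSC replicate 2 and -3.27 without CSC replicate 1.

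The pattern of the members over the 15 libraries, as the mean of the standardized log2(FPKM + 0.1) of the 8 that vary, was compared with 12157 genes of at least 1 FPKM on average. The most alike by Pearson correlation were SEC61B (0.952), RP11-85F14.5 (0.950), ZNF830 (0.943), MAD2L1P1 (0.941) and ITFG2 (0.940). The libraries fall into 5 groups, so these values mostly compare group levels. The names depend on the measure: Spearman correlation shares 1 of the 5 genes, and leaving out HLA-E, at 0 in 13 libraries, shares 0.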

How the data were processed

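The 15 libraries were grouped by the line, fraction and replicate number in their labels. The authors deposited FPKM values in 1 table of gene symbols, and no column was left out. The submitters' processing notes name Bowtie2 and GRCh38, with no role given, and the quantification tool, its annotation and the handling of reads with several matches are not given in the sources used here. Depth in reads is unknown, so no counting interval is given.

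Values were taken as log2(FPKM + 0.1), genes averaging 0.1 FPKM or more across a fit's libraries were kept, and limma 3.58.1 (lmFit and eBayes, R 4.3.3) was fitted to all of them with Benjamini-Hochberg adjustment over all genes tested. CSC and non-CSC were compared within each line, the difference of the CSC effect over the 12 sorted libraries, and lines over all 15 libraries. Subunit ratios were tested by exact permutation. The code was tested on simulated data. Tables and figures used Python 3.11.15, pandas 2.3.3, numpy 2.4.6, Biopython 1.88 and matplotlib 3.10.9. Transcript windows came from GENCODE release 29, gene coordinates and promoters from RefSeq, the latter in the RefSeq promoter table (GRCh38.p14).

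The members and lists were chosen with earlier results of these data known, and 1 gene of the regulator list is not reported here. In each list of other genes, the up to 4 called genes with the largest absolute log2 fold change are named, with PSMB5, PSMB6, PSMB7, PSMB10, NLRC5 and IRF1, and the 5 genes most like the members. Alternatives changed the pseudocount, the minimum, the scaling, the prior, a replicate term, the libraries and the fit.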

Additional observations from a re-analysis of the deposited data

Results flagged for a closer look

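The CSC effect (CSC over non-CSC, log2 scale) was compared between SUM149PT and HCC1937 by limma over the 12 sorted libraries, and the values below are SUM149PT minus HCC1937 for genes whose effects differed at an adjusted p of 0.05 or less. Of all genes, 61.1% differed in this way. The value was higher in SUM149PT for 46.0% of these, from 40.7% after rescaling to a common sum to 53.1% under quantile normalization. Among the members the difference was 0.50 for HLA-B (adjusted p = 0.00345), -1.17 for HLA-C (5.68e-06; -2.36 under quantile normalization), 0.50 for B2M (0.00632), 2.50 for TAP2 (0.000169) and -1.14 for TAPBP (0.0218). The calls of HLA-B (0.10, adjusted p = 0.588), B2M (0.20, 0.0883) and TAPBP (-0.93, 0.0570) were lost under quantile normalization, and that of TAPBP in 2 of 12 fits that left out 1 library. Of 13 other pathway genes 7 differed with a higher value in SUM149PT and 2 with a lower one. The difference was 3.17 for HLA-F (0.000219, from 1.80 to 3.60 over the alternatives), 0.64 for ERAP1 (0.000147), 2.44 for LNPEP (9.46e-05, from 1.13 to 2.89 over the alternatives) and 1.40 for THOP1 (3.26e-06). Named after their values were seen, PSME1 (1.198), ERAP2 (0.83), NPEPPS (0.76), CALR (-0.49) and PDIA3 (-0.77) were the rest of the 9. Of 14 regulators 5 were higher and 3 lower. The difference was 0.74 for NLRC5 (0.000187), -0.59 for RFXANK (0.0101), 1.36 for IRF1 (6.24e-07) and 1.30 for NFKB1 (6.25e-07). The rest of the 8, also named after their values were seen, were IRF9 (1.06), JAK1 (0.63), STAT2 (-0.36) and RELA (-0.29). Of 13 proteasome core subunits 2 were higher and 3 lower, with PSMA6 (0.38, adjusted p = 0.0265) named after its value was seen. The values of genes named in this way were not compared under the alternatives. The other values were -0.66 for PSMA4 (0.000969), -0.79 for PSMA7 (0.00152), -0.96 for PSMB6 (9.7e-05) and 0.45 for PSMB5 (0.0411), the last not called in 8 of 12 fits that left out 1 library, with replicate number as a term (0.0655) or with no expression minimum (0.0530). Among class II genes it was 2.64 for CD74 (7.4e-05, from 1.69 to 3.13 over the alternatives) and 5.93 for HLA-DQB1 (0.0101), and the other 2 tested have a group at 0. HLA-DQB1 is listed at 0 in HCC1937 CSC replicates 1 and 2, was not called in SUM149PT (-1.11, adjusted p = 0.0545), and its difference was 7.60 without HCC1937 CSC replicate 3 and 5.10 without HCC1937 CSC replicate 1 or 2, with 8.15 at a pseudocount of 0.01 and 3.72 at a pseudocount of 1.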

How the results depend on the processing

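Of the members' results under the alternatives, 604 kept direction and side of the threshold, 23 lost a call, 8 gained one and 20 changed sign. In HCC1937 the members called (1) became 2 with a pseudocount of 1, 2 with a trended prior, 2 with a replicate block, 0 under quantile normalization and 0 after rescaling to a common sum (TPM), and in the test between lines 7 became 4 under quantile normalization, where HLA-C and TAP2 alone stayed called among the 5 members with 2 effects to compare. Signs changed in HCC1937 for HLA-B (0.23 under quantile normalization, 0.0962 under TPM), HLA-C (0.32) and B2M (0.00492, both under quantile normalization), and for B2M in HCC1937 CSC against SUM149PT CSC (0.0468 under quantile normalization). In SUM159PT against SUM149PT CSC they changed for HLA-B (-1.33 under quantile normalization, -0.54 under TPM), HLA-C (-1.17 and -0.73) and TAPBP (-0.23 under TPM). Against HCC1937 CSC they changed for B2M (0.33 under upper quartile scaling) and TAPBP (0.39 under upper quartile scaling, 1.23 under quantile normalization). Leaving out 1 library gave -0.0936 to 0.0252 for HLA-B and -0.0923 to 0.356 for TAPBP in HCC1937, and for TAPBP -0.418 to 0.0550 between lines in non-CSC and -0.268 to 0.0385 in SUM159PT against HCC1937 CSC. The cause was not tested. Scaling moved the median of all genes by 0.19 in SUM149PT and 0.11 between the lines' CSC effects (quantile), by 0.13 in HCC1937 (TPM), by -0.23 (upper quartile) and -0.17 (quantile) in CSC and -0.23 (upper quartile) and -0.16 (TPM) in non-CSC between lines. In SUM159PT it moved by 0.29, 0.93 and -1.09 against SUM149PT CSC and by 0.51, 1.11 and -1.01 against HCC1937 CSC (upper quartile, quantile, TPM). Of the 5 genes most like the members, Spearman correlation shared 1, and leaving out HLA-E, an alternative chosen after seeing the data, shared 0.

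The replicate block called 11492 genes in SUM149PT, 3066 in HCC1937 and 9865 between lines. Correlations of residuals between equal replicate numbers were 0.136, 0.0287 and 0.120 in SUM149PT and -0.158, -0.0504 and -0.0355 in HCC1937. With 3 libraries a group, unknown read depth and no record of how multiply matching reads were counted, small differences and low levels of MHC genes carry limits that these values do not measure.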
